A study of Mus musculus with 6 samples.

Results

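The VEGF ligands, their receptors and the neuropilins were followed through 8 genes: Vegfa, Vegfb, Vegfc, Flt1, Kdr, Flt4, Nrp1 and Nrp2. Every probe set whose only annotated symbol was one of these genes was taken, which gave 21 of the 45037 probe sets on the array besides the Affymetrix controls. The 8 genes stand among 18193 that have a probe set of their own. All 21 probe sets were bright enough to be tested, with a mean signal above the median of all probe sets. RNA came from whole mouse lung at E18.5, the last day or so before birth, and 6 samples were each read on 1 MOE430 V2 array. The 3 Scap-deleted samples (genotype Scap d/d) lack Scap in respiratory epithelial cells, and 3 samples are controls. All samples are of mixed background, from FVB/N and B6. Scap escorts the SREBP transcription factors, which switch on sterol and fatty acid synthesis, to the compartment where they are cut free. The labels do not name the promoter that drove the deletion, the alleles of the controls, or whether each sample is a separate animal, so p-values reflect only how far these samples spread, part or all of which may be technical.

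VEGF ligands are secreted dimers that bind receptor tyrosine kinases on endothelial cells. VEGF-A acts mainly through Kdr (VEGFR2), while Flt1 (VEGFR1) binds it tightly, signals weakly and also has a secreted form that traps the ligand. VEGF-C signals through Flt4 (VEGFR3), on which lymphatic vessels depend, and the neuropilins are co-receptors that also bind secreted semaphorins. In the late fetal lung the alveolar epithelium is a main source of VEGF-A for the capillaries that grow against it, so ligand and receptor transcripts come largely from different cells.

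No member passed the test (limma, Benjamini-Hochberg adjustment over the 22519 probe sets tested, adjusted threshold 0.05). No other probe set passed either, so 0% of all were called. At an unadjusted p of 0.05, 4 of the 21 member probe sets stood out, against 5.24% of all tested. They were 2 probe sets of Nrp2, which read higher in the Scap-deleted group (2.6% of all tested did so), and 1 each of Vegfc and Flt4, which read lower (2.64% of all). The pair of Nrp2 also met an unadjusted p of 0.01, which 1.14% of all tested did. Vegfa, Vegfb, Flt1, Kdr and Nrp1 had no probe set at that level. The median log2 difference (Scap-deleted minus control) was 0.02 over the 21 probe sets and 0.01 over all tested, and 12 of the 21 were above 0, against 52.7% of all. Probe sets of a gene read products of the same gene, so the 21 cannot be taken as independent. Whether they read the same transcripts was not analysed.

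Values per array are signal on a linear scale, which can be compared between arrays for a probe set but not between probe sets. Each trio of values is given in the order of replicates 1, 2 and 3. Differences are on the log2 scale with the standard error (SE) from limma, with n = 3 arrays in each group.

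**Figure D1:**
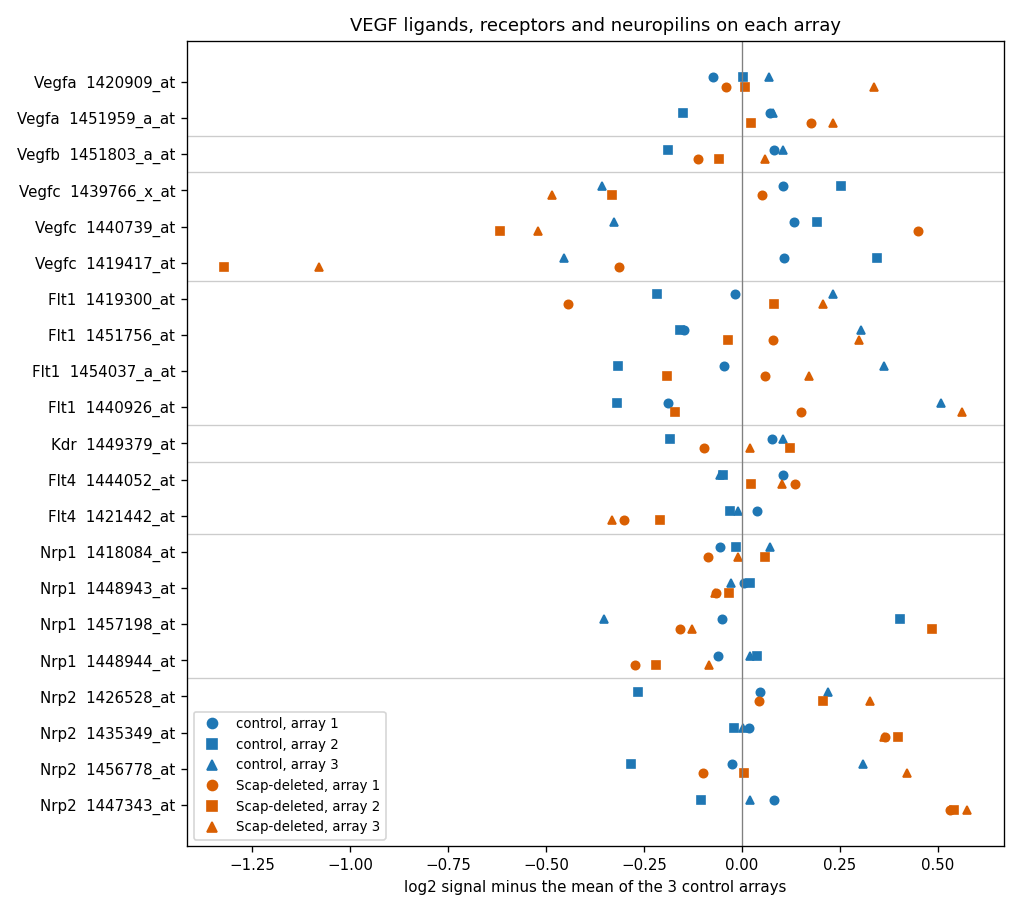
Log2 signal of the 21 member probe sets on each of the 6 arrays, minus the mean of the 3 control arrays (horizontal axis, log2 units), with controls in blue, Scap-deleted arrays in orange and the marker shape giving the array number. The Nrp2 probe sets 1435349_at and 1447343_at show tight, separate groups, while most other probe sets show mixed groups.

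Nrp2, Vegfc and Flt4 lie on separate chromosomes. In the RefSeq annotation of GRCm38.p6, Nrp2 lies on chromosome 1 from 62703317 to 62818692, Vegfc on chromosome 8 from 54077532 to 54186454 and Flt4 on chromosome 11 from 49609679 to 49652739. Their promoters are shown because they are the 3 members with a probe set at an unadjusted p of 0.05. Each is the 250 bases before the RefSeq start, 5′ to 3′ on the plus strand, at chr1:62703067-62703316, chr8:54077282-54077531 and chr11:49609429-49609678. Capitals mark GC boxes, the letters GGGCGG on either strand.
Nrp2: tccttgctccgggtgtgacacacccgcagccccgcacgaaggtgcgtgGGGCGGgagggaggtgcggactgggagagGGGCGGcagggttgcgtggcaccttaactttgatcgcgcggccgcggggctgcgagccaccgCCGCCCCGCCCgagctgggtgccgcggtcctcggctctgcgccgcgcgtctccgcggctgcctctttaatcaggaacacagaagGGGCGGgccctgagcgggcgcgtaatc
Vegfc: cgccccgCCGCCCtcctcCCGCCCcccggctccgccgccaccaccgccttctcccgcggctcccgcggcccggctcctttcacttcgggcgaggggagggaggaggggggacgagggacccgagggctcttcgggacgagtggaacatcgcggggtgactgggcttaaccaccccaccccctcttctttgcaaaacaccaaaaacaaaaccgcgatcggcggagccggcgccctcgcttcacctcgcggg
Flt4: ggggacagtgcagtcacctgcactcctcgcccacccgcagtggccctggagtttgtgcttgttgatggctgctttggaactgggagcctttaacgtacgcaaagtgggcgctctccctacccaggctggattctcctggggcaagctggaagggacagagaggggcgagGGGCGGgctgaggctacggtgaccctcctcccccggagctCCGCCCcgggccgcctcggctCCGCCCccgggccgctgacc

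A GC box was found in all 9 promoters that RefSeq gives for the 8 members (2 for Vegfa), against 42.6% of 21262 promoters of protein-coding genes and 32.7% of all 32851 promoters of this length. The Nrp2 promoter holds 5 of them, 2 of which overlap by a base. In it 72.4% of bases are G or C, and in the median protein-coding promoter 55.6%. The 9 windows ranged from 59.2% to 76.4%, all above that median, and the GC box count was not compared with windows of like content. The core of the hypoxia response element, ACGTG or GCGTG on either strand, was in 6 of the 9, against 44.0% of protein-coding promoters. For Vegfa it was only in the window before a start that lies inside the gene. The window before the start at the end of the Vegfa gene held none. Nrp2 holds GCGTG 2 times, from -207 to -203 and from -160 to -156 relative to the start, while the windows of Vegfc and Flt4 hold neither core. The E-box, CANNTG, was in 4 of 9 against 62.8%, for Vegfa again only in the window before the start inside the gene. E-box and hypoxia core share letters in CACGTG, and no match in the 9 windows overlapped that way. A sterol regulatory element, searched as TCACNCCAC on both strands, was in 0 of 9 windows and in 1.01% of protein-coding promoters. A match of letters describes the sequence and says nothing of binding.

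Among the ligands, Vegfa, the main growth factor of lung capillaries, read slightly higher on average in the Scap-deleted group on its 2 probe sets, with overlapping groups. Probe set 1420909_at gave 18840.3, 19869 and 20815 in controls, against 19278, 19920.4 and 25059 after deletion. Scap-deleted replicate 3 was the only array of its group above every control. The log2 difference was 0.10 (SE 0.13, limma adjusted p = 0.971), with a 95% interval from 86.8% to 132.6% of control, and it turned to -0.02 without that array. Probe set 1451959_a_at gave 3610.3, 3097 and 3634 in controls, against 3885, 3491 and 4039 after deletion. Here Scap-deleted replicates 1 and 3 lay above the controls and replicate 2 lay among them. This came to a log2 difference of 0.14 (SE 0.12, limma adjusted p = 0.956), with a 95% interval from 91.5% to 133.5% of control. Which splice forms of Vegfa each of these probe sets reads was not analysed.

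Vegfb, a ligand of Flt1, had 1 probe set. It gave 1780, 1475 and 1807 in controls, against 1556, 1613 and 1749.9 after deletion. All 3 Scap-deleted arrays lay inside the control range. Vegfb had a log2 difference of -0.04 (SE 0.12, limma adjusted p = 0.989), with a 95% interval from 80.1% to 118.5% of control, and its sign turned when control replicate 1 or 3 was left out.

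Vegfc, the ligand of Flt4 and a driver of lymphatic growth, read lower on average on all 3 of its probe sets, with overlapping groups on each. Probe set 1419417_at gave 1785, 2104 and 1210 in controls, against 1333, 662.5 and 784 after deletion. Scap-deleted replicates 2 and 3 were the lowest of the 6 arrays, while Scap-deleted replicate 1 lay above control replicate 3. The log2 difference was -0.90 (SE 0.30), or 53.4% of control with a 95% interval from 32.7% to 87.2%. An exact permutation test (2-sided) gave p = 0.2, where 3 arrays against 3 can give no p smaller than 0.1; limma gave 0.0191 unadjusted and 0.913 adjusted. That unadjusted p was above 0.05 when control replicate 1, control replicate 2, Scap-deleted replicate 2 or Scap-deleted replicate 3 was left out. The log2 difference lay between -1.20 and -0.70 over the 13 alternatives that tested this probe set.

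The other Vegfc probe sets differed less. Probe set 1439766_x_at gave 2027, 2242 and 1469 in controls, against 1950.3, 1497 and 1346 after deletion (log2 difference -0.25, SE 0.20, limma adjusted p = 0.954). Probe set 1440739_at gave 1981, 2065 and 1442 in controls, against 2468, 1177 and 1259 after deletion (log2 difference -0.23, SE 0.30, limma adjusted p = 0.971). Scap-deleted replicate 1 was the highest of the 6 arrays there, and the difference was -0.57 without it, -0.04 without Scap-deleted replicate 2 and -0.08 without Scap-deleted replicate 3. Over the 6 arrays, which include both groups, the 3 probe sets correlated at 0.82 to 0.88 (Pearson), a description with no test.

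The Vegfc probe sets gave different sizes. The log2 ratio of 1439766_x_at to 1419417_at within an array was 0.18, 0.09 and 0.28 in controls, against 0.55, 1.18 and 0.78 after deletion. The ratio did not overlap between groups (exact 2-sided permutation p = 0.1, the smallest possible, and 0.383 after Benjamini-Hochberg adjustment over the 23 pairs of probe sets of the same gene). Which probe set comes closest to the level of Vegfc mRNA was not tested.

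**Figure D2:**
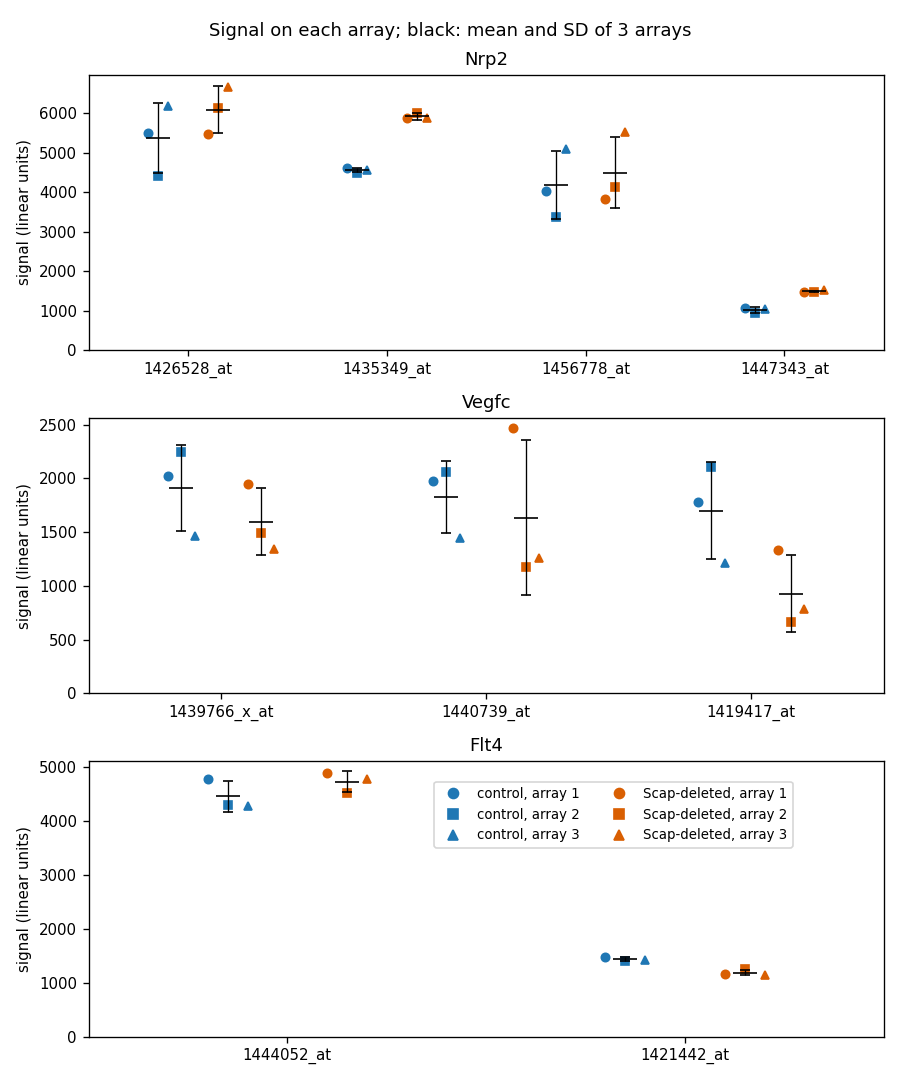
Signal (linear units, vertical axes from 0) of every probe set of Nrp2, Vegfc and Flt4 on each array, controls in blue and Scap-deleted arrays in orange, with black bars for the mean and SD of 3 arrays. On Nrp2 1447343_at the Scap-deleted arrays read 1468 to 1513 and the controls 946 to 1075, while the Vegfc groups overlap on all 3 probe sets.

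Of the receptors, Kdr, the main signalling receptor for VEGF-A on blood endothelium, read nearly the same in both groups on its single probe set. It gave 13968, 11671 and 14256 in controls, against 12379, 14415 and 13437 after deletion. The lowest array was a control and the highest a Scap-deleted one. The means were 13298 ± 1416 (SD, n = 3) in controls and 13410.3 ± 1019 (SD, n = 3) after deletion. Kdr had a log2 difference of 0.02 (SE 0.12, limma adjusted p = 0.997), with a 95% interval from 82.8% to 123.4% of control. Differences inside that interval are not excluded by these arrays. The sign turned, to -0.08, without control replicate 2, and to -0.04 without Scap-deleted replicate 2.

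Flt1, whose products bind VEGF-A, VEGF-B and placental growth factor, had 4 probe sets with log2 differences from -0.05 to 0.18 and overlapping groups on each. Probe set 1419300_at gave 2507, 2183 and 2978 in controls, against 1863, 2686 and 2925 after deletion. On 1451756_at the arrays read 1821, 1807 and 2489.8 in controls, against 2129.9, 1967 and 2482 after deletion. The 4 probe sets shared a tie to the array number: replicate 3 was the highest array of its group on each of them, in both groups. On 1454037_a_at the values were 1009, 837 and 1339 in controls, against 1084, 912 and 1174 after deletion. On 1440926_at they were 631, 577 and 1023 in controls, against 799, 639 and 1062 after deletion. Limma adjusted p-values ran from 0.972 to 0.997 for the 4. Over the 6 arrays the 3 probe sets other than 1419300_at correlated with each other at 0.89 to 0.99, and with 1419300_at at 0.46 to 0.51. Whether any of them reads only the membrane or only the secreted form is not stated in the annotation.

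Flt4 gave opposite readings on its pair of probe sets. Probe set 1421442_at gave 1480.2, 1411 and 1429 in controls, against 1169.7, 1246 and 1145 after deletion. The groups did not overlap, and each Scap-deleted array was below the control of the same number. The log2 difference was -0.28 (SE 0.10), or 82.4% of control with a 95% interval from 70.5% to 96.2%. The exact permutation p (2-sided) was 0.1, the smallest possible, and limma gave 0.0212 unadjusted and 0.913 adjusted. Probe set 1444052_at gave 4791, 4307 and 4284 in controls, against 4892, 4526 and 4787 after deletion. These groups overlapped, each Scap-deleted array was above the control of the same number, and the log2 difference was 0.09 (SE 0.10, limma adjusted p = 0.970).

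The ratio of the Flt4 probe sets within an array did not overlap between groups either. Nor did those of Vegfc 1440739_at to 1419417_at, Nrp1 1418084_at to 1448944_at, and Nrp2 1435349_at or 1426528_at to 1447343_at. Apart from these and the Vegfc pair above, the ratios of the 23 pairs overlapped. Several of these pairs share a probe set, such as 1419417_at or 1447343_at, so they are not independent. The share of such ratios without overlap among all genes on the array was not computed, so no departure from it can be read here. The log2 ratio of 1444052_at to 1421442_at was 1.69, 1.61 and 1.58 in controls, against 2.06, 1.86 and 2.06 after deletion (exact 2-sided permutation p = 0.1, adjusted p = 0.383 over the 23 pairs). The annotation ties 1421442_at to a RefSeq transcript and gives none for 1444052_at. Which of them gives the level of Flt4 was not tested, and their average, formed after the values were seen, stood at 93.5% of control. The unadjusted p of 1421442_at was above 0.05 when control replicate 1, Scap-deleted replicate 1, Scap-deleted replicate 3 or both arrays numbered 3 were left out. Its log2 difference lay between -0.32 and -0.25 over the 13 alternatives that tested it.

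The neuropilins differed from each other. Nrp2, the co-receptor that binds VEGF-C and semaphorin 3F and that is found on veins and lymphatic vessels as well as on neural and mesenchymal cells, read higher on average in the Scap-deleted group on all 4 of its probe sets. Probe set 1447343_at gave 1075, 946 and 1032 in controls, against 1468, 1480.5 and 1513 after deletion. The lowest Scap-deleted array lay well above the highest control. The means were 1018 ± 65.8 (SD, n = 3) in controls and 1487 ± 23.0 (SD, n = 3) after deletion, a log2 difference of 0.55 (SE 0.10), or 146.3% of control with a 95% interval from 124.5% to 172.0%. It ranked 26 of 22519 by p. The exact permutation p (2-sided) was 0.1, the smallest possible, and limma gave 0.000791 unadjusted and 0.656 adjusted.

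Probe set 1435349_at of Nrp2 went the same way, by less. It gave 4621, 4498 and 4571 in controls, against 5878, 6018 and 5872 after deletion. The groups did not overlap, and the gap between them was wider than the range of either. The means were 4563 ± 62.0 (SD, n = 3) in controls and 5923 ± 82.5 (SD, n = 3) after deletion, a log2 difference of 0.38 (SE 0.09), or 129.8% of control with a 95% interval from 111.9% to 150.5%. It ranked 118 by p; the exact permutation p (2-sided) was again 0.1, and limma gave 0.00407 unadjusted and 0.753 adjusted. Of the member probe sets, only 1435349_at and 1447343_at kept an unadjusted p under 0.05 in every alternative that tested them (14 and 13). Their log2 differences lay between 0.36 and 0.39 and between 0.50 and 0.59.

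The remaining Nrp2 probe sets were more spread. Probe set 1426528_at gave 5492, 4419 and 6185 in controls, against 5483, 6138 and 6666 after deletion (log2 difference 0.19, SE 0.15, limma adjusted p = 0.954). Its difference was 0.06 without control replicate 2 and 0.30 without control replicate 3. Probe set 1456778_at gave 4042, 3384 and 5099 in controls, against 3840.3, 4131 and 5514 after deletion (log2 difference 0.11, SE 0.20, limma adjusted p = 0.978), and its sign turned, to -0.03, without control replicate 2 and to -0.05 without Scap-deleted replicate 3. The groups overlapped on both, and on both the highest array of each group was replicate 3.

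Over the 6 arrays the Nrp2 probe sets 1435349_at and 1447343_at correlated at 0.99, and 1426528_at and 1456778_at at 0.89, while the other correlations were 0.23 to 0.63. These points include the difference between groups. After removing the group means, 1435349_at and 1447343_at correlated at 0.63, 1426528_at and 1456778_at at 0.93, and 1447343_at with 1426528_at and 1456778_at at 0.77 and 0.59. Averaged over the 4 probe sets, relative to the control mean, Nrp2 gave log2 levels of 0.03, -0.17 and 0.14 in controls, against 0.21, 0.29 and 0.42 after deletion. The average stood at 123.7% of control without overlap of the groups (exact 2-sided permutation p = 0.1) and was formed after the values were seen. The part of the Nrp2 transcript that each probe set reads was not analysed here.

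Nrp1, a co-receptor for VEGF-A on endothelium and for semaphorin 3A on axons, stayed closer to control. Probe set 1418084_at gave 18299.8, 18811 and 19981 in controls, against 17921, 19809.6 and 18888 after deletion. The groups overlapped, and the log2 difference of -0.01 (SE 0.10, limma adjusted p = 0.997) turned to 0.001 with quantile normalization and 0.002 with median centring. Probe set 1457198_at gave 9955, 13629 and 8073 in controls, against 9242, 14429 and 9439 after deletion, with replicate 2 the highest array in both groups (log2 difference 0.07, SE 0.24, limma adjusted p = 0.989).

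On the other 2 probe sets of Nrp1 the Scap-deleted arrays all lay below the controls, by little. Probe set 1448943_at gave 18557, 18747 and 18139 in controls, against 17641, 18057 and 17624 after deletion. The log2 difference was -0.06 (SE 0.09, limma adjusted p = 0.974), or 96.2% of control. Probe set 1448944_at gave 9969, 10681 and 10543 in controls, against 8609.5, 8937 and 9811 after deletion (log2 difference -0.19, SE 0.10, limma adjusted p = 0.940), or 87.6% of control.

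**Figure D3:**
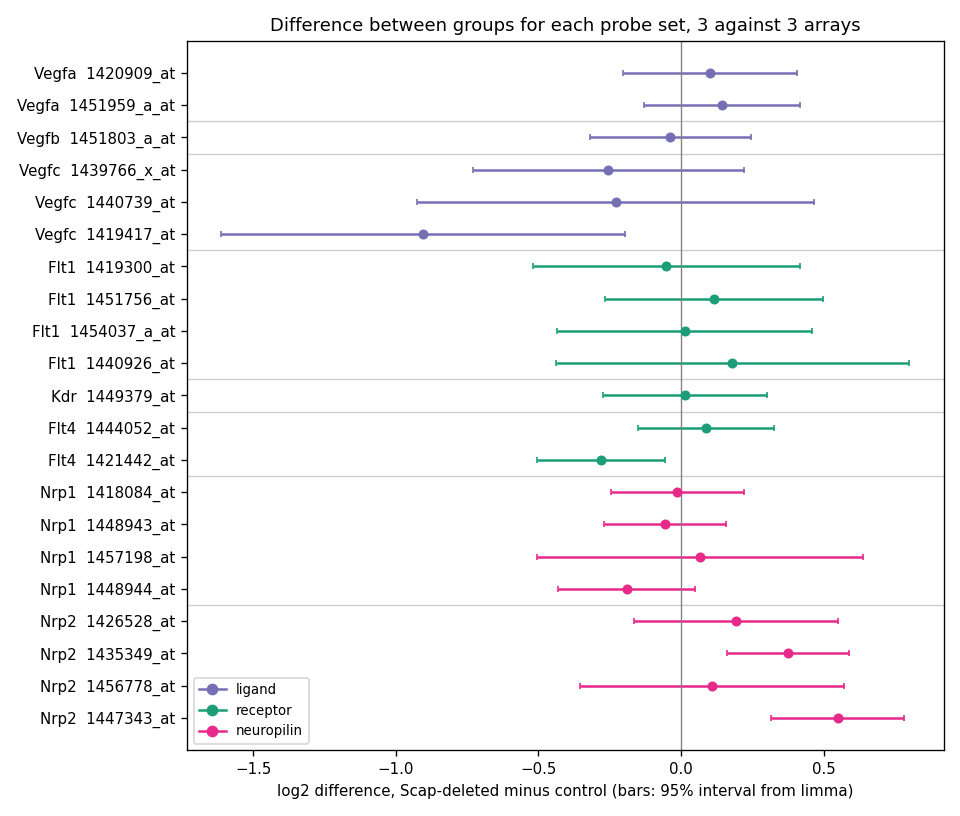
Log2 difference, Scap-deleted minus control, for each member probe set (points, horizontal axis) with the 95% interval from limma over 3 against 3 arrays (bars), coloured by role. The intervals of 4 probe sets leave out 0, those of Nrp2 1447343_at and 1435349_at above it and those of Vegfc 1419417_at and Flt4 1421442_at below it, and none passed the adjusted threshold.

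Groups did not overlap on 5 of the 21 member probe sets, which is 23.8%, where 10.5% of all tested probe sets did so. Higher after deletion were 2 (both of Nrp2, against 5.3% of all), and lower were 3 (Flt4 1421442_at, Nrp1 1448943_at and Nrp1 1448944_at, against 5.23% of all). These 5 come from 3 genes. With the replicate number as a block, 4 member probe sets again had an unadjusted p under 0.05, against 8.54% of all tested. None was called with the block (0% of all; lowest limma adjusted p = 0.443, for Nrp2 1447343_at). With only the probe set of highest mean signal kept for each gene, 0 of the 8 members reached an unadjusted p of 0.05, since the probe sets of Nrp2, Vegfc and Flt4 that differed are not the brightest of their genes.

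Some member probe sets, such as those of Flt1 and Vegfc, differed between arrays of the same group in a way that went with the array number. How much of the members' variation this makes up was not computed. The array numbered 3 stood on the same side of the mean of arrays 1 and 2 in both groups for 19 of the 21 probe sets, against 61.2% of all tested. On 13 it was higher and on 6 lower, and the exceptions were Flt4 1444052_at and Nrp2 1435349_at. The count takes no account of size, and some of these differences were near 0, such as 0.16 in controls and 0.008 after deletion for Kdr. Probe sets of the same gene are not independent in it. Flt1 1440926_at gave a log2 difference between array 3 and the others of 0.76 in controls and 0.57 in the Scap-deleted group. Vegfc 1419417_at gave -0.68 and -0.26. The Nrp2 probe sets that differed between groups hardly moved with the number, with 0.004 and -0.02 for 1435349_at and 0.03 and 0.04 for 1447343_at. What the number stands for is not stated in the labels, and its part in the values of Flt1 and Vegfc was not tested.

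**Figure D4:**
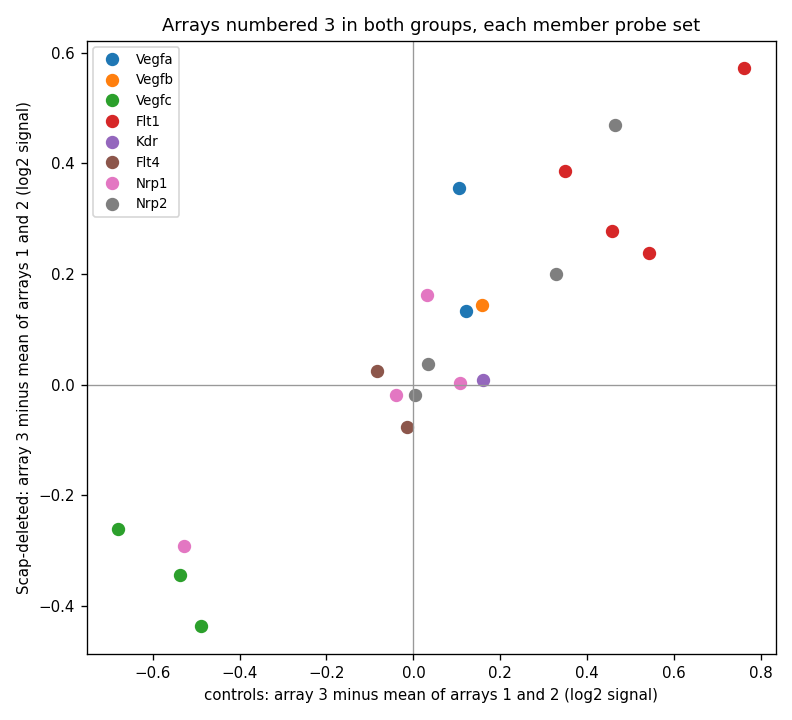
For each member probe set, the log2 signal of array 3 minus the mean of arrays 1 and 2, in controls (horizontal axis) and in the Scap-deleted group (vertical axis), coloured by gene. All 4 Flt1 points lie at the upper right and all 3 Vegfc points at the lower left, while Nrp2 has points both near 0 and at the upper right.

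The other genes of the pathway gave no call. Of 126 symbols listed, some of them older aliases, 114 had a probe set, 103 were tested, each by its brightest probe set, and 0 passed the adjusted threshold (lowest limma adjusted p = 0.791). At an unadjusted p of 0.05, 2 were higher and 2 lower, which is 3.88%, against 5.24% of all probe sets tested. Differences were above 0 for 50 genes and below 0 for 53, with a median at 99.7% of control.

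Among the partners of Vegfc and Flt4, the gene of smallest p was Ccbe1, which encodes a secreted factor that helps ADAMTS3 cut VEGF-C into its active form. It gave 1793, 1714 and 2029.9 in controls, against 1319, 1369.9 and 1419 after deletion. The groups did not overlap, and the log2 difference was -0.43 (SE 0.11, limma adjusted p = 0.791), or 74.3% of control. Its other 3 probe sets were too dim to test and stood at 108.8%, 104.0% and 48.1% of control, with overlapping groups on each. Adamts3 gave 656.9 ± 48.4 (SD, n = 3) in controls and 632.8 ± 110.2 (SD, n = 3) after deletion. Vegfd, another ligand of Flt4, had log2 differences of -0.10, 0.03 and 0.12 on its 3 probe sets. Pgf, a ligand of Flt1, was too dim to test, with 390.4, 352.7 and 601.6 in controls, against 352.1, 318.4 and 269.2 after deletion. Adamts3, Vegfd and Pgf were named after their values were seen. Of the 10 tested genes for other ligands and ligand processing, 5 were above 0, with a median at 98.8% of control (Mmp14 at 112.0%, Hspg2 at 111.4%, Agrn at 109.3%).

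Signal transducers of the receptors were even, with 25 of 52 above 0 and a median at 99.8% of control. Dab2, an adaptor in VEGF receptor uptake, stood at 123.4% (log2 difference 0.30, SE 0.11, limma adjusted p = 0.913), with its other 3 probe sets also above 0. The kinase Braf stood at 122.1% (limma adjusted p = 0.932), with its other 8 probe sets above 0. These are the 2 higher genes at an unadjusted p of 0.05, while Map2k2 at 116.7% and Nos3, the endothelial nitric oxide synthase, at 87.0% did not reach it. Of 18 genes known to be induced by VEGF, 9 were above 0, with a median log2 difference of 0.0001. Ccn1, a secreted matrix protein and, with Ccbe1, one of the 2 lower genes at an unadjusted p of 0.05, stood at 76.6% of control (limma adjusted p = 0.913), the Notch ligand Dll4 at 87.0%, Egr1 at 132.5% and Plaur at 114.9%.

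Oxygen-sensing regulators upstream of Vegfa were above 0 in 3 of 11, with a median at 96.5% of control and none at an unadjusted p of 0.05. Epas1, a hypoxia-inducible factor abundant in lung endothelium, gave 35739, 33084 and 38194 in controls, against 29908, 30970.4 and 32569 after deletion. Its groups did not overlap (log2 difference -0.19, SE 0.10, limma adjusted p = 0.940). On its other probe set, at 85.0% of control, the groups overlapped. Hif3a stood at 84.2%, Arnt2 at 89.7% and Ppargc1a at 130.0% of control. In the hypoxia response list 11 of 25 tested genes were above 0, with a median at 99.0%. Semaphorins and plexins, the other partners of the neuropilins, were above 0 in 8 of 12, with a median at 102.6% (Sema3f at 128.5%, Plxna3 at 118.6%, Plxna1 at 121.1%, Sema3c at 88.3%), and none reached an unadjusted p of 0.05. Angiopoietin and other vascular signalling genes were above 0 in 5 of 18, with a median at 97.8%. Acvrl1, a BMP receptor of endothelium, stood at 79.4% (limma adjusted p = 0.913) on its brighter probe set and at 93.4% on the other, and Angptl4 at 122.0%.

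The cells that carry the receptors were followed by their markers. Of 28 tested markers of blood endothelium 26 were below 0, with a median at 92.3% of control, and none passed the adjusted threshold. In bulk tissue, fewer cells of a type and less RNA per cell cannot be told apart. Summed over the list, the signal was 249808 to 269863 in controls and 229015 to 247682 after deletion, without overlap, while the mean log2 level of the list overlapped (-0.06 to 0.06 in controls, -0.15 to -0.04 after deletion). Cdh5, the cadherin of endothelial junctions, stood at 85.7%, Tie1 at 85.8% and Ramp2 at 84.5% of control. Beside these values, Kdr stood at 101.0% and the Flt1 probe sets at 96.5% to 113.3%, and a difference from the markers was not tested. Of 6 markers of aerocytes, the capillary cells that depend on VEGF-A from the epithelium, 3 were above 0, with a median at 102.4% (Ednrb at 87.8%, Fibin at 91.4%, Apln at 107.0%).

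Lymphatic endothelium, where Flt4 and Nrp2 are found together, could be followed only weakly. Of 7 marker genes with a probe set 6 were tested, 4 of them above 0, with a median at 102.8% of control. Summed signal was 20037 to 21864 in controls and 17797 to 20225 after deletion, with overlap. Most of it came from Lyve1, which some macrophages also express and which stood at 86.5% of control (Reln at 94.1%, Fgl2 at 116.1%). Prox1, the factor that defines lymphatic identity, was too dim to test, at 190.2 ± 58.3 (SD, n = 3) in controls and 185.0 ± 22.0 (SD, n = 3) after deletion. The part of endothelial or lymphatic content in the readings of Nrp2, Vegfc, Flt4 and Ccbe1 was not tested.

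Among the epithelial cells, alveolar type I markers, a list that includes Vegfa itself, were above 0 in 7 of 12, with a median at 102.7% of control (Clic5 at 84.5%, Aqp5 at 81.3%, Gprc5a at 114.1%). Alveolar type II markers were below 0 in 8 of 11, with a median at 89.6% (Lyz2 at 57.7%, Sftpa1 at 45.5%), and airway secretory markers in 8 of 8, with a median at 83.2%. At an unadjusted limma p of 0.05, 5 of the 11 type II markers were lower, against 2.64% of all probe sets tested. Medians were 97.6% for pericytes, 101.1% for smooth muscle, 98.9% for fibroblasts, 110.9% for leukocytes, 90.2% for erythroid cells and 108.1% for heart and skeletal muscle. The summed signal of the leukocyte list went the other way from its median, at 101915 to 117779 in controls and 72031 to 85475 after deletion, without overlap. Most of that sum came from Lyz1, its gene of smallest p, at 54.7% of control. Lyz1 had a mean of 78298 in controls and 43040 after deletion, and the sum 110202 and 76883. The fall in the sum was thus no larger than that of Lyz1 alone. Of the 11 tested leukocyte markers 8 were above 0. No gene of these lists passed the adjusted threshold, and their part in the members' values was not tested.

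**Figure D5:**
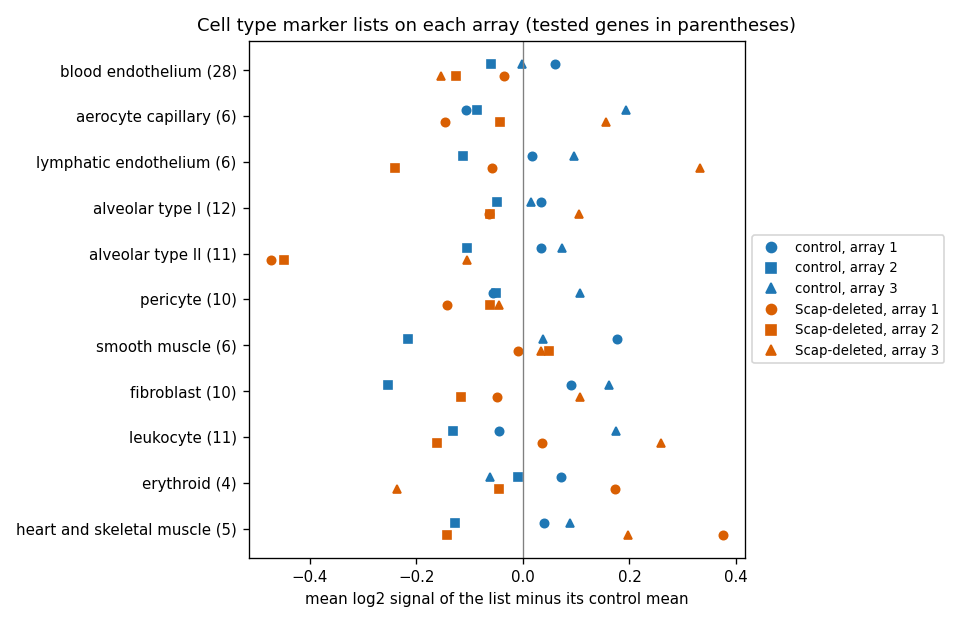
Mean log2 signal of each cell type marker list on each array, minus its control mean (horizontal axis), with the number of tested genes in parentheses, controls in blue and Scap-deleted arrays in orange; the widely spread airway secretory list is not drawn. Blood endothelium reads -0.06 to 0.06 in controls and -0.15 to -0.04 in the Scap-deleted group.

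Genes whose signal ran most like that of the brightest probe set of each role over the 6 arrays were ranked by Pearson correlation among 19325 probe sets. For Vegfa 1420909_at they were Vldlr at 0.995, Paqr8 at 0.989, Mecom and Rbl2 at 0.986 and Clec4n at 0.985. For Kdr they were Tiprl, Msl1, Ski, Tbl1x and Trmt2a, at 0.985 to 0.995. For Nrp1 1418084_at they were Armt1, Zfp697, Rc3h1, Gtdc1 and Wdr1, at 0.970 to 0.985. In all, 168 probe sets exceeded 0.9 for Vegfa, 142 for Kdr and 92 for Nrp1. With only 6 arrays and 19325 probe sets compared, correlations this high can also arise between unrelated genes. Shared expression with the members was not tested.

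Scap itself checks the labels only weakly, since whole lung holds many cells outside the epithelium. Its tested probe set gave 7264, 4195 and 3079.7 in controls, against 1847, 3286 and 2702 after deletion, with Scap-deleted replicate 2 above control replicate 3. Scap had a log2 difference of -0.84 (SE 0.34, limma adjusted p = 0.932), or 55.9% of control, and -0.50 without control replicate 1. The number of arrays, 3 in each group, limits the precision.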

How the data were processed

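Total RNA of 6 whole-lung samples, grouped by title into 3 control and 3 Scap-deleted, was measured on MOE430 V2 arrays. The authors' deposited values are intensity on a linear scale for 45101 probe sets. RMA is listed in the submitters' processing notes, although the values are not quantile normalized and each array has a mean of 1500 after trimming 2% at either end; the background correction is not stated. Scaling to a common mean would hide a shift shared by most genes.

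Signals were taken to log2 without a pseudocount and fitted with limma 3.58.1 under R 4.3.3 (lmFit, eBayes, no covariate, 4 residual degrees of freedom). After the 64 Affymetrix controls were left out, the 22519 probe sets at or above the median mean log2 signal (a signal of 497.8) were tested together and p-values adjusted over them. GEO's platform annotation named genes (34945 probe sets with 1 symbol, 932 with several, 9160 with none), and RefSeq of GRCm38.p6 gave positions and promoters. Without the controls, array medians lay at 490.8 to 530.4. Every member probe set is given. Other genes enter by their brightest probe set, and those eligible to be named were the 4 of smallest p in each pathway or vascular list and the 3 of smallest p in each cell type list; not all are named. The members and the 22 gene lists were chosen with earlier results of these data known. The fit was tested on simulated data.

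Both groups carry replicate numbers 1 to 3 in their titles. Deviations from group means correlated at 0.20, 0.28 and 0.41 between same-numbered arrays, each over 0.1, and the numbers were therefore treated as pairing the samples in the blocked alternative. Between arrays of different numbers the correlations were -0.29 to 0.04. All are deviations from shared group means and so are tied together, and they are a description, not a test of pairing. Alternatives were another normalization, a pseudocount, other brightness limits, 1 probe set per gene, another variance model and leaving out arrays.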

Additional observations from a re-analysis of the deposited data

How the results depend on the processing

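No member probe set passed the adjusted threshold under any of the 15 alternatives. The count of all probe sets called was 0 in the fit reported, 1 with the brightest probe set per gene, 2 with a trended and robust variance, and 0 to 1 when 1 array was left out. The count of member probe sets at an unadjusted p of 0.05, 4 in the fit reported, was 4 with the replicate block, 5 with a trended and robust variance, 3 without both arrays numbered 3, 1 with a brightness limit at the 75th percentile (13 member probe sets tested), 0 with the brightest probe set per gene (8 tested) and 2 to 4 when 1 array was left out, with 2 without control replicate 1 or Scap-deleted replicate 3. The replicate block changed no call.

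The median log2 difference of the members moved from 0.02 to 0.087 at the 75th percentile, where fewer probe sets are tested, and ran from -0.032 (without control replicate 2) to 0.071 (without Scap-deleted replicate 1) when 1 array was left out, being below 0 also without Scap-deleted replicate 2 or 3. Of 294 values of member probe sets under alternatives 22 had the sign turned, all on 9 probe sets with a log2 difference of at most 0.18 in size. For Nrp1 1418084_at these were 0.0014 with quantile normalization, 0.0023 with median centring and 0.022 without both arrays numbered 3, and for Nrp1 1457198_at -0.012 without both arrays numbered 3. When 1 array was left out, values ran from -0.017 to 0.17 for Vegfa 1420909_at, -0.13 to 0.015 for Vegfb, -0.18 to 0.14 for Flt1 1419300_at, -0.14 to 0.19 for Flt1 1454037_a_at, -0.0098 to 0.43 for Flt1 1440926_at, -0.076 to 0.071 for Kdr, -0.048 to 0.024 for Nrp1 1418084_at, -0.14 to 0.27 for Nrp1 1457198_at and -0.048 to 0.26 for Nrp2 1456778_at. Others that kept their sign moved by over 1.5 times: 0.068 to 0.20 for Vegfa 1451959_a_at, -0.43 to -0.13 for Vegfc 1439766_x_at, -0.57 to -0.035 for Vegfc 1440739_at, 0.022 to 0.27 for Flt1 1451756_at, 0.059 to 0.14 for Flt4 1444052_at and 0.060 to 0.30 for Nrp2 1426528_at. The cause was not tested beyond the arrays left out. The number of arrays and, for dim probe sets, signal near background limit what these data can show; no detection calls were used.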
